A study of Homo sapiens with 4 samples.

Results

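The genes described here are the TGF-beta ligands TGFB1, TGFB2 and TGFB3, the receptors TGFBR1 and TGFBR2, the receptor-activated SMADs SMAD2 and SMAD3, the common SMAD SMAD4 and the inhibitory SMAD SMAD7. All 9 were found by symbol among the 16376 genes listed for LASCPC-01 cells, an NEPC (neuroendocrine prostate cancer) line that carries NMYC and an active AKT1. The line was the only one sequenced, and the labels give its genotype as WT. Cells received PBS as the control or fluoxetine, an antidepressant that blocks serotonin reuptake, with 2 RNA libraries in each group. The study's text gives 5 µM fluoxetine for 48 h, whereas the labels give day 3 and no dose, and PP stands in the titles of the fluoxetine samples. The set was put together around the lower FPKM of TGFB1 with fluoxetine, so its fall is described without a test, and the other 8 genes were chosen by their place in the pathway and were tested where their level allowed it.

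TGF-beta ligands are secreted in a latent form that is held by LTBP proteins in the matrix and released by integrins, thrombospondin and proteases. The free ligand binds TGFBR2, which phosphorylates TGFBR1, and TGFBR1 phosphorylates SMAD2 and SMAD3. These join SMAD4, enter the nucleus and change transcription, and SMAD7 is induced as a brake that blocks TGFBR1. In epithelial cells the pathway is known for arrest of growth, for matrix production and for loss of epithelial features, and it often has a different effect in late cancers. RNA levels do not show phosphorylation or activity of SMADs.

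Values are FPKM, which divide the fragments of a gene by gene length and library depth, so levels of different genes can be set side by side as far as the length used for each gene fits its transcripts. The depth by which the authors divided was solved from the values and lay between 32873603 and 34831389 reads, so that 1 read on a gene of 1 kilobase was worth 0.0287 to 0.0304 FPKM. The solved read numbers are the smallest that give whole reads and a whole gene length, so the true numbers could be whole multiples of them. Reads of the replicates differed beyond counting noise, at a chi-square per degree of freedom of 9.26 in PBS and 11.2 in fluoxetine, and each library was counted as 1 sample. The labels do not say whether replicates were separate cultures, so p-values cover only the spread between libraries of this series. In limma the spread of each gene was moderated toward that of genes at similar FPKM. A p-value or interval of 1 gene therefore does not rest on the spread of that gene alone. The summed FPKM of 8 neuroendocrine markers was between 671 and 727 in all libraries, with UCHL1 the highest, while the defining markers CHGA and FOXA2 were below 0.1 FPKM in each. Bulk RNA cannot tell fewer cells of a type from less RNA per cell.

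Fluoxetine came with less TGFB1, which was given no test, and with no called change in the other members that were tested. TGFB1, the ligand most studied in cancer, was at 1.13 and 1.29 FPKM with PBS and at 0.383 and 0.0819 FPKM with fluoxetine. Both fluoxetine libraries lay below both PBS libraries, and they also lay far from each other. The values rested on 78 and 94 reads in the PBS group and on only 28 and 6 in the fluoxetine group. An exact Poisson interval at 95%, which covers counting error only, ran from 0.254 to 0.553 FPKM for fluoxetine replicate 1 and from 0.0301 to 0.178 FPKM for fluoxetine replicate 2, so these replicates differed beyond counting error at these read numbers. The group means were 1.21 ± 0.112 and 0.232 ± 0.213 FPKM (SD, n = 2), and the log2 fold change was -2.14 (standard error, SE, 0.38) on the scale of log2(FPKM + 0.1), which understates the change of low genes. It was -1.44 without fluoxetine replicate 2 and -2.84 without fluoxetine replicate 1, so 1 library moved its size by more than 1.5 times on the linear scale but not its direction. With a pseudocount of 1 in place of 0.1 it was -0.85.

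TGFB3 was the main ligand in these cells. It had 8.38 and 8.05 FPKM with PBS and 7.32 and 9.07 FPKM with fluoxetine, from 995 to 1233 reads. The fluoxetine libraries lay on either side of the PBS libraries. Its log2 fold change was -0.01 (SE 0.11, limma adjusted p = 0.986), with a 95% interval from -0.25 to 0.23, or 0.840 to 1.17 times the PBS level. TGFB2, a ligand whose expression is typical of developing tissues, had 0.0204 and 0.0193 FPKM with PBS and 0.0193 and 0.0241 FPKM with fluoxetine. Only 4 or 5 reads per library stood behind these values, TGFB2 was below the level for testing, and no difference was detectable at this depth.

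Summed over the 3 ligands, the libraries held 9.53 and 9.35 FPKM with PBS and 7.72 and 9.17 FPKM with fluoxetine. TGFB1 made up 11.8% and 13.8% of that sum with PBS and 4.95% and 0.893% with fluoxetine. TGFB3 made up 87.9% and 86.0% with PBS and 94.8% and 98.8% with fluoxetine. The ligand RNA was thus mostly TGFB3 in every library, and the sum was lowest in fluoxetine replicate 1, where TGFB3 was lowest as well.

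The promoter windows of TGFB1 and TGFB3 are shown because these ligands of the same pathway differed in level and in how far they moved. Each is the 250 bases before a start site in RefSeq on GRCh38.p14, read on the minus strand. TGFB1 lies at chr19:41353923-41354172, and the 4 bases farthest from the start also fall in an exon of TMEM91 on the other strand. TGFB3 has an outer start at chr14:75983012-75983261 and an inner start at chr14:75981996-75982245. Capitals mark the GC box GGGCGG, the E-box CACGTG and the CRE core GACGTCA on either strand.
TGFB1: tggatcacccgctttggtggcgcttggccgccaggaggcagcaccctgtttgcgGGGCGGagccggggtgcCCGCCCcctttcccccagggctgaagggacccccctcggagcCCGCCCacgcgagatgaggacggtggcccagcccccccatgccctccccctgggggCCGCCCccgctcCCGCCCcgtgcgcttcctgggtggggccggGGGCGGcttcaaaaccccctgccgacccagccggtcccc
TGFB3 outer: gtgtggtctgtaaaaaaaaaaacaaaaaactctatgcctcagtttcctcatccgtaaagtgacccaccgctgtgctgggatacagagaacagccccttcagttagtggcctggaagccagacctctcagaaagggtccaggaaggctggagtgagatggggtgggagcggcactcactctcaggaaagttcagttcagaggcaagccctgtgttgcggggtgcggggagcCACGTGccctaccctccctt
TGFB3 inner: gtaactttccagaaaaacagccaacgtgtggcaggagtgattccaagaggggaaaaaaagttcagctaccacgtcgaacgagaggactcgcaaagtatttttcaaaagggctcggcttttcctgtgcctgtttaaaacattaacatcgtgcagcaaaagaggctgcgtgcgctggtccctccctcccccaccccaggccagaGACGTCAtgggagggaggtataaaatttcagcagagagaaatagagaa
The TGFB1 window was 76.8% G and C and held 6 GC boxes, a motif bound by SP1-type factors that was present in 42.6% of 35116 RefSeq windows of the same length. The TGFB3 windows were 54.8% and 49.2% G and C, against a median of 58% over all windows, and held no GC box. The outer one held 1 E-box, found in 6.34% of windows, and the inner one held 1 CRE core, found in 3.12%. The motif CAGAC, which SMAD3 and SMAD4 can bind, was present in 38.0% of all windows, with 2 copies in the outer TGFB3 window and none in the others. These letters describe the windows only, and no binding was measured.

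Both receptors were measured at low level. TGFBR1, the signalling receptor, had 1.64 and 1.56 FPKM with PBS and 1.76 and 1.76 FPKM with fluoxetine, from 331 to 375 reads. Both fluoxetine libraries were above both PBS libraries by a small margin. The log2 fold change of 0.13 (SE 0.15, limma adjusted p = 0.807) had a 95% interval from -0.20 to 0.46. TGFBR2, which binds the ligand, had 0.397 and 0.341 FPKM with PBS and 0.271 and 0.383 FPKM with fluoxetine, from 63 to 89 reads. The groups overlapped, and the log2 fold change of -0.14 (SE 0.30, limma adjusted p = 0.903) had the widest interval among the members tested, from -0.79 to 0.50, or 0.578 to 1.42 times the PBS level.

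SMAD2 and SMAD3 carry the signal from TGFBR1. SMAD2 had 1.54 and 1.51 FPKM with PBS and 1.38 and 1.35 FPKM with fluoxetine. Both fluoxetine libraries were lower, and the log2 fold change was -0.15 (SE 0.16, limma adjusted p = 0.785, 95% interval -0.50 to 0.20). The SMAD2 replicates lay close together (SD 0.0185 FPKM with PBS and 0.0207 FPKM with fluoxetine). Its SE and interval thus came largely from the spread of other genes at similar FPKM. SMAD3 had 1.09 and 1.12 FPKM with PBS and 1.05 and 1.26 FPKM with fluoxetine. Its groups overlapped, and the log2 fold change was 0.06 (SE 0.18, limma adjusted p = 0.952, 95% interval -0.35 to 0.46). SMAD2 rested on 1959 to 2192 reads and SMAD3 on 260 to 319 reads. The FPKM of SMAD2 implied a gene length of 41648 bases, against 7263 bases for SMAD3, so their similar FPKM came from very different read numbers. Transcripts of SMAD2 in GENCODE 29 have a median of 935 bases and reach 34526 bases, so the length used lowers the FPKM of SMAD2 against other genes wherever shorter transcripts gave the reads.

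SMAD4, the partner that both share, had 7.66 and 7.86 FPKM with PBS and 7.01 and 7.69 FPKM with fluoxetine, from 2139 to 2396 reads. Fluoxetine replicate 1 was the lowest library and replicate 2 lay within the PBS range. The log2 fold change of -0.08 (SE 0.10, limma adjusted p = 0.816) had a 95% interval from -0.29 to 0.13. SMAD7, the inhibitor that the pathway induces, had 3.91 and 3.74 FPKM with PBS and 4.03 and 3.93 FPKM with fluoxetine, from 475 to 519 reads. Both fluoxetine libraries were above both PBS libraries, by a narrow margin. The log2 fold change was 0.06 (SE 0.11, limma adjusted p = 0.902, 95% interval -0.19 to 0.30).

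**Figure D1:**
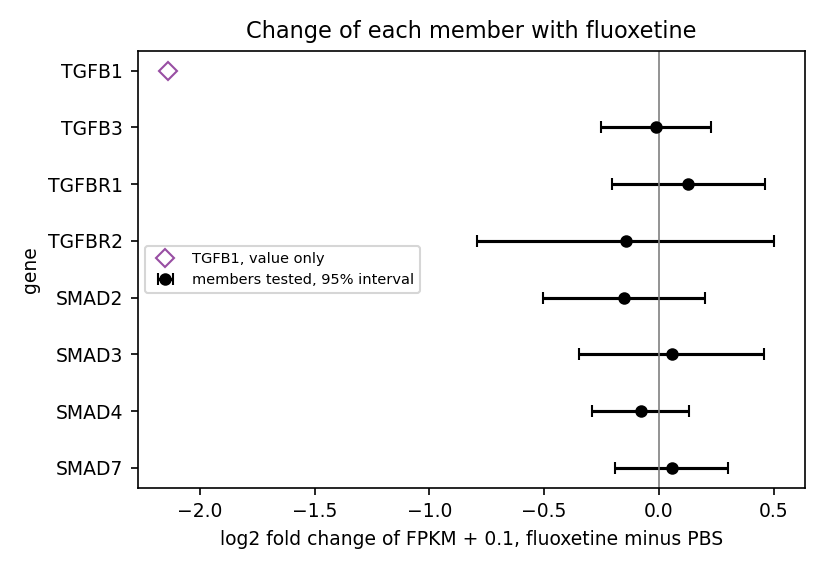
Log2 fold change of FPKM + 0.1, fluoxetine minus PBS, with 95% intervals from limma as bars for the 7 members tested, and TGFB1 as an open diamond with its value only. Every interval includes 0, from the narrow SMAD4 interval (-0.29 to 0.13) to the wide TGFBR2 interval (-0.79 to 0.50), and TGFB1 stands at -2.14.

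Of the 8 members other than TGFB1, 7 passed the minimum mean of 0.1 FPKM, and none of the 7 had an adjusted p under 0.05 or an unadjusted p under 0.05 from limma. With limma voom on the recovered reads, where all 8 could be tested, none had either. Across all 12663 genes tested, 0.237% were called, 27 lower and 3 higher with fluoxetine, or 0.213% for lower alone. The members split into 4 lower and 3 higher, with a median log2 fold change of -0.01 (that of TGFB3, which was above 0 by quantile normalization and by median centring), against -0.02 over all genes tested. The groups did not overlap for SMAD2, TGFBR1 and SMAD7, 3 of 7, and for 41.6% of all genes, so the members were near the background in this respect. An interval that includes 0 does not show equal levels, and those of TGFBR2 and SMAD2 reached down to 0.578 and 0.705 times the PBS level.

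In level, the PBS order was TGFB3, SMAD4, SMAD7, TGFBR1, SMAD2, TGFB1, SMAD3, TGFBR2 and TGFB2, from a mean of 8.21 down to 0.0199 FPKM. The values of neighbours in that order did not overlap, although TGFB3 and SMAD4 were only 1.06 times apart and TGFBR1 and SMAD2 1.05 times. The place of SMAD2 depends on its long implied length, since its reads were close in number to those of SMAD4. With fluoxetine TGFB1 dropped from the sixth to the eighth place, below SMAD3 and TGFBR2. TGFB1 overlapped with TGFBR2 there, and TGFB3 overlapped with SMAD4.

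The other pathway genes were grouped in 7 lists that held 103 listed genes beside the members, 86 of them tested. In these, 60 were lower and 26 higher with fluoxetine, 2 were called (2.33%), both lower, against 0.237% of all genes tested, and 12 had an unadjusted p under 0.05 from limma (14.0%), against 1078 of 12663 (8.51%). The median was -0.08, against -0.02 over all genes tested, of which 56.5% were lower. The lists were chosen with earlier results of these data known, so these shares are a description and not a test.

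Both called genes were in the list of targets that TGF-beta is known to induce, where 23 of 27 were tested (SMAD7 among them), 14 lower and 9 higher with a median of -0.08. Of the 23, 8.70% were called, against 0.237% of all genes tested. An unadjusted p under 0.05 from limma was reached by 5 (21.7%), against 8.51% of all genes tested. These shares are likewise a description and not a test. BHLHE40, a transcription repressor also induced by low oxygen, had 19.5 and 20.0 FPKM with PBS and 11.6 and 11.5 FPKM with fluoxetine. The replicates nearly coincided in each group, and BHLHE40 fell with a log2 fold change of -0.77 (SE 0.08, limma adjusted p = 0.00201). FN1, which encodes the matrix protein fibronectin, had 2.46 and 3.30 FPKM with PBS and 1.33 and 1.19 FPKM with fluoxetine. The groups were apart, and FN1 fell with a log2 fold change of -1.12 (SE 0.17, limma adjusted p = 0.0181). FN1 lost its call without any 1 of the libraries, with an adjusted p from 0.0915 to 0.458, and BHLHE40 lost it without PBS replicate 1 (0.0631) or PBS replicate 2 (0.0978). Neither was called with no filter on low values or by eBayes without the trend, and FN1 was not called by quantile normalization (0.0783). COL1A1, a fibroblast marker, was also a target in the list. It was the main part of a fibroblast marker sum of 2.85 and 3.14 FPKM with PBS and 1.98 and 2.84 FPKM with fluoxetine. The markers COL1A2, COL3A1, DCN, LUM and PDGFRB were at 0 to 0.212 FPKM in all libraries. The part of these markers in the FN1 result was not tested.

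Other targets gave no call. CCN2, a matrix growth factor, had 1.48 and 1.27 FPKM with PBS and 0.971 and 0.970 FPKM with fluoxetine. Both fluoxetine libraries were lower, and the log2 fold change was -0.46 (SE 0.18, limma adjusted p = 0.538). TGFBI, another matrix protein, had only 10 to 27 reads per library and a log2 fold change of -0.44 with a SE of 0.41. SKIL and PMEPA1, both feedback inhibitors that SMADs induce, had log2 fold changes of -0.14 and 0.07 with adjusted p of 0.741 and 0.905 from limma. The feedback genes SMAD7, SKIL and PMEPA1 therefore all had small differences of either sign. BAMBI, an inhibitor also in the list of targets, had 0.29 (limma adjusted p = 0.580), with both fluoxetine libraries higher.

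Among the genes that store and activate the ligand, 11 of 13 tested were lower and none was called, with a median of -0.08. The integrin chains ITGAV and ITGB1, which pull on the latent complex, had log2 fold changes of -0.12 and -0.08, and the matrix protein THBS1 had 0.05. MMP2, a protease, had 0.23 (limma adjusted p = 0.679). MMP14, a membrane protease singled out after its values were seen, had 0.403 and 0.614 FPKM with PBS and 0.147 and 0.178 FPKM with fluoxetine. Its groups did not overlap, and its log2 fold change of -1.19 (SE 0.32) had an adjusted p of 0.325 from limma.

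Among co-receptors and receptors of the activin and BMP branches, 8 of 9 tested were lower and none was called, with a median of -0.15. BMPR2 and ACVR2A, which bind BMPs and activins, had log2 fold changes of -0.26 and -0.18, ACVR2B and BMPR1A had -0.06 and -0.02, and the co-receptor TGFBR3 had -0.15. SMAD5 and SMAD1, which act in the BMP branch, had -0.16 and -0.09. The 3 other SMADs tested were all lower with adjusted p from 0.613 to 0.773, so no call was made for any SMAD.

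Signal regulators and SMAD partners were evenly spread, with 15 lower and 13 higher of 28 tested and a median of -0.01. TRAF6, a ubiquitin ligase that links TGFBR1 to kinase signalling, had -0.34 (limma adjusted p = 0.532), and TRIM33, a SMAD4 partner, had -0.22. BAMBI, a decoy receptor, had 0.29 and the deubiquitinase USP11 had 0.08. None was called. BMP branch targets gave no call either, with 4 lower and 2 higher of 6 tested and a median of -0.06. Of these, ID2, ID1 and ATOH8 had log2 fold changes of -0.13, -0.08 and -0.05, and ID3 had 0.01.

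Of the other ligands and antagonists of the family, 18 of 22 were listed and 12 tested, 8 lower and 4 higher, with none called and a median of -0.14. GDF15, a stress-responsive ligand, had 3.82 and 5.004 FPKM with PBS and 3.23 and 2.84 FPKM with fluoxetine. INHBE, an activin chain, had 14.6 and 14.0 FPKM with PBS and 10.3 and 11.8 FPKM with fluoxetine. Both fluoxetine libraries were lower for both genes, with log2 fold changes of -0.52 (limma adjusted p = 0.329) and -0.38 (limma adjusted p = 0.236). INHBB, the most abundant activin chain named here, and FSTL3, an activin trap, had 0.10 and 0.07.

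GENCODE 29 places TGFB1 on the minus strand at chr19:41301587-41353911 (GRCh38). HNRNPUL1, CCDC97 and TMEM91 overlap this span. Where exons overlap, reads could be misassigned or left uncounted if strand was not used in counting. Overlap of exons within the span was not examined. HNRNPUL1, an RNA-binding protein gene at 126 to 139 FPKM, had a log2 fold change of -0.08, and CCDC97 had -0.09. TMEM91 had 3 to 12 reads per library, in overlapping groups, and a log2 fold change of 0.34 with a SE of 0.43. The flanking B9D2 had -0.04. AXL, a receptor kinase gene, had 7 and 17 reads with PBS and 2 and 5 with fluoxetine. Both of its fluoxetine libraries were lower, and it was below the level for testing. None of the neighbours that were tested was called.

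The 5 tested genes whose pattern over the 4 libraries lay nearest to that of TGFB1, by Euclidean distance of centred log2(FPKM + 0.1), were C19orf33 (0.820), IGFBP2 (0.825), LCN15 (0.916), PCP4 (0.946) and IGFBP4 (0.999). They are a description and carry no test, since they were chosen for that pattern. All had a mean below 1 FPKM in both groups. C19orf33 had only 0 to 5 reads per library, PCP4 had 0 to 8 and LCN15 had 1 to 15. IGFBP2 had 4 to 37 and IGFBP4 had 17 to 75. IGFBP2, which encodes an IGF-binding protein, had 0.461 and 0.598 FPKM with PBS and 0.274 and 0.0645 FPKM with fluoxetine, and fluoxetine replicate 2 was its lowest library as it was for TGFB1. IGFBP4, another IGF-binding protein gene, had 0.842 and 0.979 FPKM with PBS and 0.313 and 0.221 FPKM with fluoxetine. The leukocyte marker sum, which was low throughout, was 0.151 and 0.176 FPKM with PBS and 0.147 and 0.0385 FPKM with fluoxetine, and fluoxetine replicate 2 was lowest there too. Its part in the TGFB1 value was not tested, and 0 of its 5 listed genes had a mean of 0.1 FPKM or more. Its defining gene PTPRC went the other way, at 0.0048 and 0.00454 FPKM with PBS and 0.0318 and 0.0136 FPKM with fluoxetine. Only 1 to 7 reads per library stood behind PTPRC. The endothelial sum was 0.110 to 0.220 FPKM, and of 4 platelet markers only ITGA2B was listed, at 0 to 0.00861 FPKM. The luminal prostate sum was 15.5 to 17.3 FPKM. Markers that reached the level for testing were 6 neuroendocrine, 4 luminal prostate, 2 fibroblast and 1 endothelial. None of those was called, against 0.237% of all genes tested, and 0 leukocyte or platelet markers could be tested.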

How the data were processed

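The authors deposited FPKM per gene for 2 PBS and 2 fluoxetine LASCPC-01 libraries. The submitters' processing notes name fastp, HISAT2, HTSeq and GRCh38, with no role or version. The methods name a VAHTS kit and the labels a stranded TruSeq kit, so the use of strand in counting is not certain. Libraries were grouped by the treatment label. Reads were solved from FPKM as the shortest whole-base gene length that gives whole reads within 0.0001 reads, which worked for 100% of 16080 genes above 0. The depth was the one that 83 genes shared when their GENCODE 29 exon lengths were used. The study's methods name a count model, and no counts were used, so log2(FPKM + 0.1) was fitted for 12663 genes (mean FPKM 0.1 or more) with limma 3.58.1 (lmFit, eBayes with a trend) in R 4.3.3, with Benjamini-Hochberg adjustment and a threshold of 0.05. An exact permutation test (two-sided) of 1 gene can reach no p lower than 0.333 at this size. Fits and recovery were tested on simulated data. Python 3.11.15, pandas 2.3.3 and scipy 1.17.1 were used. Named genes were the members, the called genes of each list or its 2 lowest and 2 highest at a mean FPKM of at least 1, CCN2, SKIL, PMEPA1, TGFBI, TGFBR3, the neighbours of TGFB1, the 5 genes nearest to it in pattern, and markers. Results of 2 genes that this rule names are not reported here. Members and lists were chosen with earlier results of these data known. Alternatives were other pseudocounts, filters, scalings, eBayes settings, the replicate block, leaving out each library and, chosen after seeing the data, limma voom on the reads.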

Additional observations from a re-analysis of the deposited data

How the results depend on the processing

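TGFB1 was given no test. Among the other members, none was called under any alternative that used all libraries and tested it, limma voom on the recovered reads included. The log2 fold change of TGFB1 stayed negative under each alternative that gave it a value (at a minimum mean of 1 FPKM it was not fitted), with -0.85 at a pseudocount of 1, -2.68 at a pseudocount of 0.01 and -2.84 to -1.44 with 1 library left out. The count over the pathway lists, 2 in the report, was 0 with no filter on low values, 0 by eBayes without the trend, 1 by quantile normalization and 0 to 1 with 1 library left out. BHLHE40 had an adjusted p of 0.610 with no filter and 0.170 without the trend, and FN1 had 0.650, 0.328 and, by quantile normalization, 0.0783. All genes called, 30 in the report, came to 0 with no filter, 0 without the trend, 16 by quantile normalization, 64 with the replicate block, 51 by voom, chosen after seeing the data, and 3 to 17 with 1 library left out. Unadjusted, 1175 and 933 genes had p under 0.05 with no filter and without the trend. The cause of these differences was not tested.

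Signs changed only for small differences. By quantile normalization these were TGFB3 (0.0227), ACVR2B (0.00789), ATOH8 (0.0727), BMPR1A (0.0345) and ID3 (-0.0273), by median centring TGFB3 (0.0149) and BMPR1A (0.00641), and on the TPM scale ID3 (-0.0376). With 1 library left out, ranges that cross 0 were -0.16 to 0.14 for TGFB3, -0.33 to 0.0460 for TGFBR2, -0.0645 to 0.18 for SMAD3, -0.14 to 0.0234 for ACVR2B, -0.26 to 0.17 for ATOH8, -0.0799 to 0.0402 for BMPR1A, -0.00187 to 0.15 for FSTL3, -0.35 to 0.19 for ID1, -0.0821 to 0.10 for ID3, -0.25 to 0.00878 for ITGAV, -0.0552 to 0.19 for PMEPA1 and -0.12 to 0.22 for THBS1. Leaving out a library leaves 1 in its group, which is assumed to vary like the other group.

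The replicate numbers of the titles were checked for pairing. After removal of group means, libraries with the same number had a correlation of 0.0351 over the genes tested, or 0.101 over those at 10 FPKM or more, so the libraries were taken to share only a number. With the replicate block, 0 members and 2 pathway genes were called. Among the members, TGFB1 with fluoxetine and TGFB2 had the fewest reads, at most 28 per library.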
